A study of Mus musculus with 2254 samples.

Results

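Prostaglandins are lipid mediators of blood vessel tone and inflammation. The genes described here are 10 of the 30950 genes in a single-cell count table of mouse brain cells: the cyclooxygenases Ptgs1 and Ptgs2, the terminal synthases Ptgis, Ptges and Ptgds, and the receptors Ptgir, Ptgfr, Ptger1, Ptger3 and Ptger4. They were taken by name, as the rows of the table with these symbols, and all 10 were found. Their values were examined in every cell class, in the smooth muscle-like cells that hold Ptgs2 or Ptgis reads, and in Notch3 knockout (KO) against wild-type (WT) plates.

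Cells of adult C57BL/6 mice were sorted singly into 384-well plates and sequenced by Smart-seq2, which reads whole transcripts without marking their strand. All mice of both genotypes carried the alleles SM22-Cre and Rosa26-stop-tdTomato, a red reporter switched on by a Cre recombinase that the promoter of the smooth muscle gene SM22 drives. KO mice lacked Notch3, a receptor of vascular mural cells, and WT mice did not. How Notch3 was inactivated, and the sort gates, are not given in the sources used here. KO plates 043, 467 and 471 gave 1127 cells, and so did WT plates 044, 468 and 469 (1127 cells); 2252 of these 2254 cells passed minimums of 50000 counts and 1000 genes. No animal is named, so each genotype counts as 1 sample: plates show technical spread, and no test between genotypes was possible. Plates 043 and 044 have low plate numbers and the other 4 high ones (467 to 471). Values within each set are given below, although no source says that the sets are batches.

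The deposited cells held 49473 to 763059 counts each, with a median of 291872. Notch3 itself, in CPM (counts scaled to a common library total, here with TMM factors), was at 60.6, 101 and 112 CPM in smooth muscle-like cells on the KO plates, against 193, 656 and 921 CPM on the WT plates. Every KO plate lay below every WT plate, and KO cells still held Notch3 reads. Cells were grouped by clustering without Notch3 and without the prostaglandin genes, and clusters were named from marker lists. Smooth muscle-like cells numbered 529 KO and 333 WT and held a mean of 4157 CPM of Myh11 and 486 CPM of Cnn1. A mural cluster without a name, 220 KO and 111 WT cells, held 5132 CPM of Rgs5 but 20.4 CPM of Cnn1, with Kcnj8 reads in 32.3% of cells. There were 131 KO and 39 WT fibroblast-like cells (Dcn at 2378 CPM), 36 KO and 158 WT endothelial-like cells (Cldn5 at 2079 CPM) and 162 KO and 41 WT ependymal-like cells. Astrocyte-like cells (11 KO and 271 WT), macrophage/microglia-like cells (0 KO and 54 WT) and oligodendrocyte-like cells (0 KO and 15 WT) came nearly all from WT plates, and 37 KO and 104 WT cells were left without a name. The cell mix therefore differed between the genotypes' plates, and genotypes were compared within a class only.

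Cyclooxygenases turn arachidonic acid, which phospholipases such as Pla2g4a release from membranes, into the unstable precursor PGH2. Ptgs1 is the constitutive and Ptgs2 the inducible form. Terminal synthases then shape PGH2: Ptgis makes prostacyclin, the vessel-relaxing product of the vascular wall, Ptges makes PGE2 and Ptgds makes PGD2. Prostacyclin acts through Ptgir and PGF2α through Ptgfr, while PGE2 acts through Ptger1, Ptger3 and Ptger4, of which Ptger4, like Ptgir, raises cyclic AMP.

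The cyclooxygenase promoters are shown because smooth muscle-like cells held reads of Ptgs2 and almost none of Ptgs1. Each line gives the stretch from 150 bases before to 25 bases after the RefSeq transcript start (GRCm38.p6, plus strand). Capitals mark, in the Ptgs2 sequence at chr1:150099881-150100055, the C/EBP palindrome TTGCGCAA and the run that joins the cyclic AMP response element core ACGTCA to the E-box CACGTG. The Ptgs1 sequence lies at chr2:36230276-36230450.

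Ptgs2: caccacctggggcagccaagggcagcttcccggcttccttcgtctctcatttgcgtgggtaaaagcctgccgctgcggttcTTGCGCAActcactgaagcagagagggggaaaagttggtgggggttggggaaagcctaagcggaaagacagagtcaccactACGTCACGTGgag

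Ptgs1: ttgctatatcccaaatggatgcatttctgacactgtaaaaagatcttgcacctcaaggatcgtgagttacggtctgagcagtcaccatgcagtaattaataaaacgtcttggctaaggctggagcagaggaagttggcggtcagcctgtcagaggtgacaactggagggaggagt

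These motifs were chosen with the known elements of the Ptgs2 promoter in view. On both strands and from 250 bases before to 25 after the start, ACGTCA was present in 7.30% of 27025 RefSeq promoters, CACGTG in 6.77% and TTGCGCAA in 0.181%. In Ptgs2 the first of these overlaps the second by 2 letters, and both lie after the RefSeq start, at offsets 12 to 17 and 16 to 21. The third lies before it, at offsets -69 to -62. Of the 8 promoters held for the 10 genes, those of Ptgs2 alone carried these 3 motifs, and none carried TATAAA, which 13.6% of all promoters hold. GC content was 58.9% over the printed Ptgs2 stretch and 47.4% over that of Ptgs1. A match describes letters only.

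Levels across classes are CPM of the counts summed per plate, given as a mean with its SD over plates with at least 10 cells of the class, and shares are the cells with at least 1 read. Ptgs1 (GRCm38 chromosome 2, 36230426 to 36252272, plus strand) was a gene of the immune and astrocyte-like cells. It was at 272 and 210 CPM in macrophage/microglia-like cells on WT plates 468 and 469, with a read in 22 of 54 cells (40.7%). In astrocyte-like cells it was at 41.4 and 75.5 CPM on these plates, with a read in 17.4% of cells. The 49 astrocyte-like cells with a Ptgs1 read held a summed 19.0 CPM of the macrophage/microglia marker list and the 233 without held 17.2 CPM, so these markers were as low in both. Fibroblast-like cells had 14.8 ± 15.6 CPM. Smooth muscle-like cells held 2 Ptgs1 counts in all, in 2 of 862 cells.

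Ptgs2 (chromosome 1, 150100031 to 150108227, plus strand) had a wide plate spread wherever it was read. It was at 48.6 and 223 CPM in macrophage/microglia-like cells (24.1% of cells), 84.1 ± 108 CPM in smooth muscle-like cells (10.3%), 80.4 ± 70.5 CPM in fibroblast-like cells (19.4%) and 22.1 ± 16.6 CPM in endothelial-like cells (8.76%). These classes did not differ beyond their spread. The Rgs5-high mural cells, also muscle-type cells of the vessel wall, had 0.0791 CPM with a read in 8 of 331 cells. Ependymal-like and astrocyte-like cells were as low, at 0.0409 and 0.0301 CPM.

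Among the terminal synthases, Ptgis was the vascular one. Ptgis (chromosome 2, 167191805 to 167240604, minus strand) was at 412 ± 98.7 CPM in smooth muscle-like cells, where 667 of 862 cells had a read (77.4%), and at 258 ± 78.0 CPM in fibroblast-like cells. The lowest smooth muscle plate had 316 CPM and the highest fibroblast plate 394 CPM, so these neighbours overlapped. Rgs5-high mural cells had 99.7 ± 56.6 CPM, with 162 CPM on their highest plate, below every smooth muscle plate. Endothelial-like cells had 107 ± 102 CPM, and this was uneven: cluster 13 held 210 CPM and cluster 8 held 0.919 CPM. The 41 endothelial-like cells with a Ptgis read held a summed 3397 CPM of the smooth muscle marker list and the 153 without held 239 CPM, and the part of these markers in the value was not tested. Ptgis was at 3.20 CPM in ependymal-like cells, 1.11 CPM in astrocyte-like cells and 0 CPM on both macrophage/microglia plates.

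Ptges (chromosome 2, 30889471 to 30929863, minus strand) was a fibroblast gene here, at 234 ± 51.0 CPM with a read in 72.4% of fibroblast-like cells. It was at 0.648 CPM in smooth muscle-like cells and at 25.0 CPM in endothelial-like cells. Its 40.1 ± 69.3 CPM in Rgs5-high mural cells rested on 22 of 331 cells. These 22 cells held 364 CPM of the fibroblast marker list and the other 309 held 284 CPM. Of the 6 markers of this list, 2 reached 10 CPM in the 22 cells and 1 in the other 309. The part of the list in the Ptges value was not tested.

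Ptgds (chromosome 2, 25466709 to 25470046, minus strand), the brain-type PGD2 synthase of the leptomeninges and oligodendrocytes, was at 1610 ± 624 CPM in fibroblast-like cells, from 949 to 2431 CPM by plate, and at 1718 CPM on the single plate with 10 or more oligodendrocyte-like cells. A Ptgds read was also present in 39.6% of smooth muscle-like cells, at 5.49 CPM, and in 44.3% of ependymal-like cells, at 4.77 CPM, with median depths of 301652 and 295825 counts per cell. In smooth muscle-like cells, 8 cells at or above 100 CPM, the highest at 787 CPM, held 46.9% of the Ptgds counts.

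Among the receptors, Ptgir had its highest levels in the muscle-type cells, leaving aside the cells without a name given below. Ptgir (chromosome 7, 16906490 to 16910905, plus strand) was at 46.0 ± 17.7 CPM in smooth muscle-like cells (21.5% of cells) and 40.0 ± 11.2 CPM in Rgs5-high mural cells (18.7%), which did not differ beyond their spread. Fibroblast-like cells had 10.8 ± 13.8 CPM of Ptgir, with 35.5 CPM on their highest plate, against 24.8 CPM on the lowest smooth muscle plate and 27.4 CPM on the lowest Rgs5-high plate, so these overlapped. Macrophage/microglia-like cells had 12.2 CPM, and endothelial-like and astrocyte-like cells were at 0.459 and 0.227 CPM. Prostacyclin synthase and its receptor were thus both read in the muscle-type cells. Ptgfr (chromosome 3, 151796502 to 151837630, minus strand) was at 93.2 ± 120 CPM in endothelial-like cells, 66.4 ± 84.4 CPM in fibroblast-like cells, 20.0 ± 28.2 CPM in Rgs5-high mural cells and 4.47 CPM in smooth muscle-like cells. No order of these Ptgfr levels exceeds their spread, since 10 cells held 98.1% of the Ptgfr counts of the fibroblast-like class. In endothelial-like cells the Ptgfr reads lay mainly in cluster 13, where 13 of 45 cells had one. Ptgfr was read in 0 of 54 macrophage/microglia-like cells, which allows a share of up to 5.56%.

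Ptger4 (chromosome 15, 5206661 to 5244187, minus strand) was high in macrophage/microglia-like cells, at 265 and 371 CPM with a read in 31 of 54 cells (57.4%). Its next level was 13.2 ± 16.5 CPM, in Rgs5-high mural cells. Ptger1 (chromosome 8, 83666678 to 83672753, plus strand) was at 87.7 and 75.9 CPM in macrophage/microglia-like cells and at 16.0 to 32.4 CPM in the smooth muscle-like, Rgs5-high, fibroblast-like, endothelial-like, astrocyte-like and ependymal-like classes. Ptger3 (chromosome 3, 157566892 to 157645888, plus strand) had its highest mean in Rgs5-high mural cells, 18.4 ± 28.7 CPM in 22 cells, and smooth muscle-like cells had 5.97 ± 4.55 CPM. It was read in 0 of 203 ependymal-like cells, which allows a share of up to 1.48%. Among the cells without a name, cluster 15 (31 cells, 30 of them KO) scored highest on the pericyte list, with Rgs5 at 7105 CPM. It had 242 CPM of Ptgs2, 78.7 CPM of Ptgir and 80.6 CPM of Ptgfr on its single plate with 10 or more cells. This Ptgir level was above the means of smooth muscle-like and Rgs5-high mural cells. Over the 31 cells of cluster 15, 4 cells at or above 100 CPM held 100% of the Ptgs2 counts. For Ptgfr, 6 such cells held 97.3% of the counts. Clusters 12 and 17 had 883 and 881 CPM of Ptgds.

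**Figure D1:**
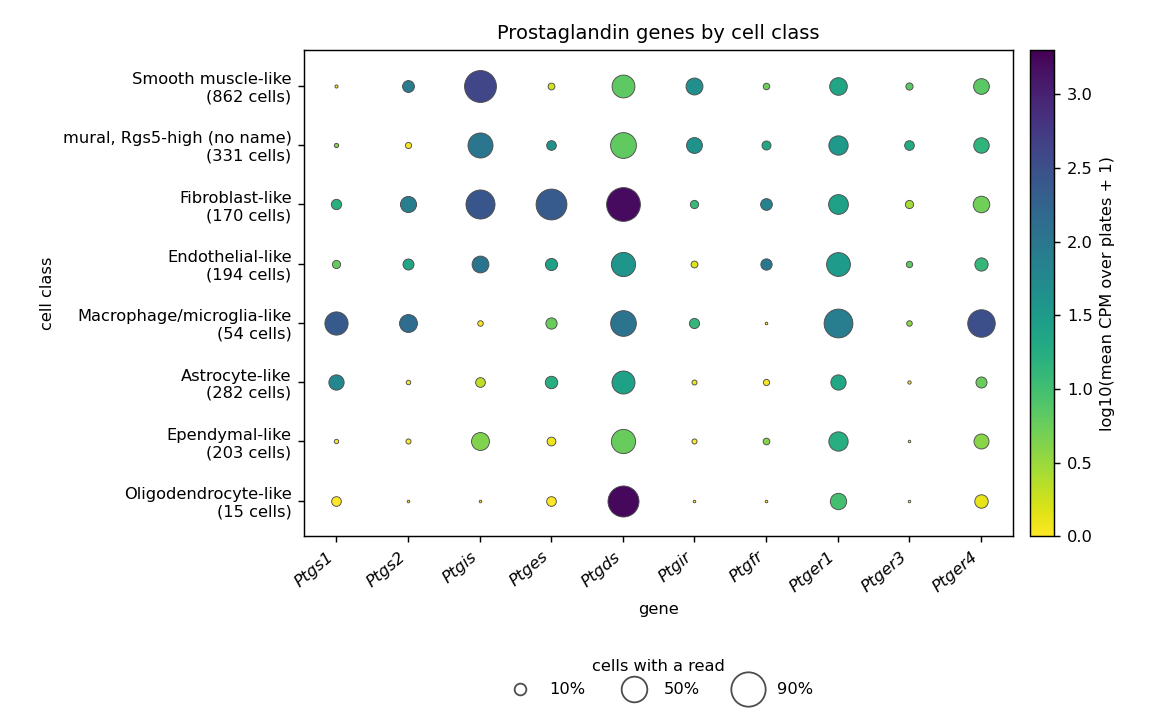
Each circle stands for a gene (x axis) in a cell class (y axis), its area for the percentage of cells with a read and its colour for log10 of the mean CPM over plates plus 1. Ptgis fills the smooth muscle-like row (77.4% of cells), Ptgds and Ptges the fibroblast-like row (87.1% and 72.4%), and in the macrophage/microglia-like row Ptger1 (63.0%), Ptger4 (57.4%), Ptgds (50.0%) and Ptgs1 (40.7%) have the widest circles.

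Levels of different genes can be set side by side only per length of exon. In smooth muscle-like cells, Ptgis led with 161 CPM per kb, followed by Ptgs2 with 18.4, Ptgir with 13.8, Ptger1 with 3.83 and Ptgds with 3.33 CPM per kb. In fibroblast-like cells the order was Ptgds with 976 CPM per kb, Ptgis with 100, Ptges with 59.5 and Ptgs2 with 17.6. In macrophage/microglia-like cells it was Ptgds with 65.4 CPM per kb, Ptgs1 with 61.9, Ptger4 with 47.9, Ptgs2 with 29.7 and Ptger1 with 15.0, where 7 of the 54 cells held 96.0% of the Ptgds counts.

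The reads of Ptger4 have to be read with a neighbouring gene. Of its exon bases, 82 lie over Ttc33 on the opposite strand, with a further 1015 under the pseudogene Gm15937. Without strand, reads from such a pair cannot be told apart there. In smooth muscle-like cells, 152 of the 159 cells with a Ptger4 read (95.6%) had a Ttc33 read, against 68 of the 703 without (9.67%). In macrophage/microglia-like cells this was otherwise: 4 of the 31 cells with a Ptger4 read had a Ttc33 read, and Ptger4 stood at 309 CPM over all 54 cells, against 6.31 CPM for Ttc33. The low Ptger4 levels of the vascular classes are therefore uncertain, whereas the macrophage/microglia level of Ptger4 had no such companion. Ptgis overlaps 1110018N20Rik on the opposite strand by 156 exon bases, 6.08% of its length. In Rgs5-high mural cells, 72 of the 157 cells with a Ptgis read (45.9%) had a 1110018N20Rik read, against 9 of the 174 without (5.17%). Ptgis stood at 120 CPM there and 1110018N20Rik at 35.3 CPM. In smooth muscle-like cells the shares were 26.2% and 5.13%, at 437 and 22.9 CPM. In ependymal-like cells they were 51.0% and 5.84%, at 4.58 and 11.9 CPM, so the low Ptgis level there is uncertain.

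Within the smooth muscle-like cells Ptgs2 was held by few cells and Ptgis by most. The 862 cells held 31196 Ptgs2 counts, of which 45.0% lay in the 10 highest cells and 99.7% in the 50 cells at or above 100 CPM (5.80% of cells). The highest cell was at 5689 CPM. For Ptgis, the 10 highest cells held 5.73% of the counts, and 546 cells (63.3%) were at or above 100 CPM. The Ptgs2 cells fell mainly in 2 of the 5 smooth muscle-like clusters, which had been drawn without these genes.

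Cluster 10, with 67 of its 73 cells from KO plates, had 535, 310 and 1168 CPM of Ptgs2 on KO plates 043, 467 and 471. A Ptgs2 read was present in 26 of its 73 cells (35.6%), and in 0 of its 6 WT cells, which allows a share of up to 50.0%. Ptgis was low in this cluster, at 159, 114 and 177 CPM on the same plates. Cluster 3 had Ptgs2 reads in 33 of 262 cells (12.6%) and was also the cluster with the most Ptgis, at 695 ± 154 CPM with a read in 95.4% of cells. Its Ptgs2 level was 374, 6.38 and 164 CPM on the KO plates, against 68.6, 0 and 0 CPM on the WT plates. Clusters 4, 5 and 9 held 8.36, 6.86 and 0.370 CPM of Ptgs2, and cluster 9 held as much Ptgis as cluster 3, at 685 ± 238 CPM. High Ptgis was therefore found both with and without Ptgs2, and high Ptgs2 both with and without high Ptgis. Ptgir varied less, from 17.4 CPM in cluster 9 to 55.4 CPM in cluster 10.

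**Figure D2:**
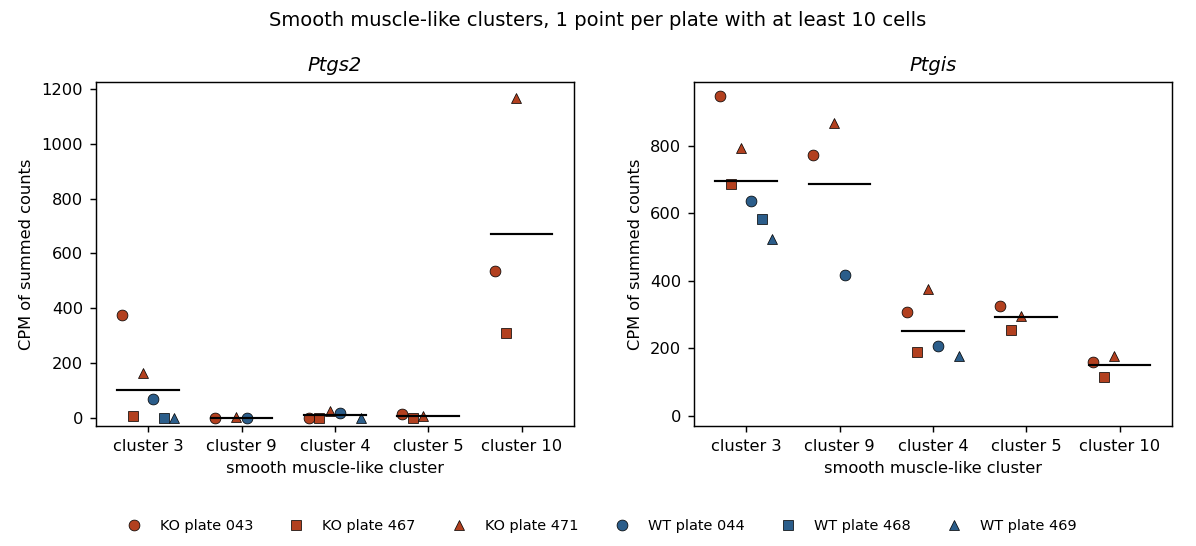
CPM of Ptgs2 (left) and Ptgis (right) in the 5 smooth muscle-like clusters (x axis), with 1 point per plate of at least 10 cells and a line at the mean over plates. Cluster 10 is highest for Ptgs2 (310 to 1168 CPM, KO plates only) and lowest for Ptgis (114 to 177 CPM), and clusters 3 and 9 are the highest for Ptgis.

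Ptgis followed the contractile gene Cnn1 (calponin), as far as ranks within plates show. Over 862 smooth muscle-like cells of 6 plates, the genes most like Ptgis by mean within-plate Spearman rho were Cnn1 (0.53), Tpm2 (0.50), Sorbs2 (0.43), Csrp1 (0.41) and Bdh1 (0.38). All points of a plate share its depth, and cells of a plate are no replicates. Divided into tertiles by Cnn1 CPM within each plate, cells had 161 ± 65.3 CPM of Ptgis in the lowest, 387 ± 109 in the middle and 696 ± 139 CPM in the highest tertile. The order was the same on each of the 6 plates. On KO plates 043, 467 and 471 the highest tertile had 955, 555 and 671 CPM and the lowest 241, 138 and 227 CPM. On WT plates 044, 468 and 469 the highest had 711, 674 and 608 CPM and the lowest 167, 120 and 70.3 CPM. The difference of the highest and lowest tertiles was 535 ± 105 CPM over the 6 plates. Cells with no Cnn1 read filled the lowest tertile of KO plate 467 and 31 of the 45 cells of its middle tertile, 23 of the 76 middle cells of KO plate 471 and 3 of the 14 of WT plate 469, so the split between lowest and middle there divides cells tied at 0. Rgs5, a gene of the other mural cells, ran the opposite way, at 2733, 1567 and 506 CPM from the lowest to the highest tertile. Ptgs2 had 58.6, 99.8 and 93.5 CPM in the same order and Ptgir had 52.5, 45.6 and 38.5 CPM.

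**Figure D3:**
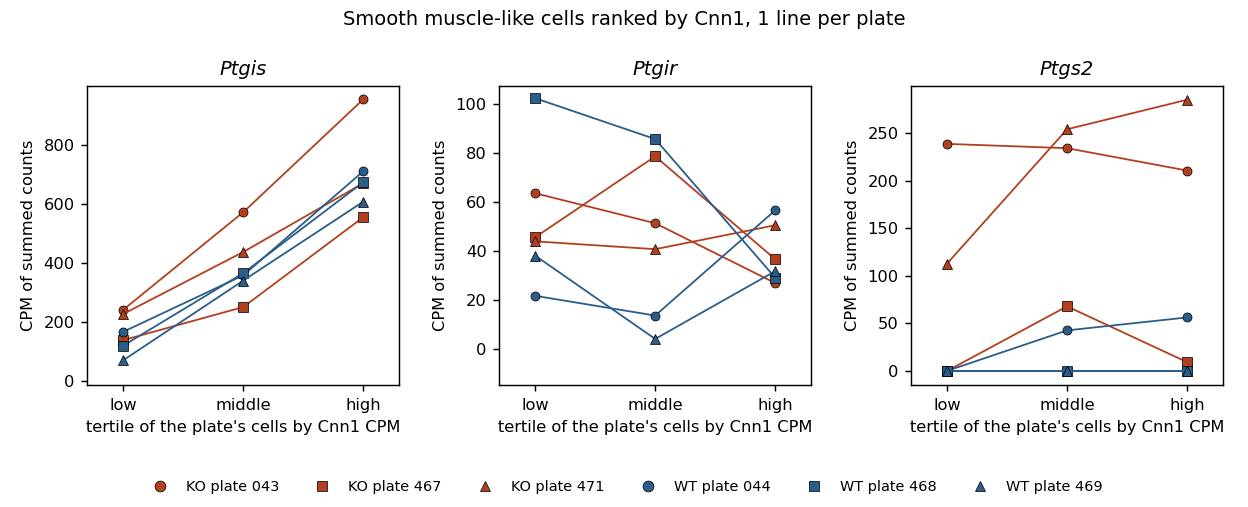
CPM (y axis) of Ptgis, Ptgir and Ptgs2 in smooth muscle-like cells divided by Cnn1 CPM into tertiles within each plate (x axis), with 1 line per plate. All 6 Ptgis lines climb from the lowest to the highest tertile, from a mean of 161 to one of 696 CPM, while the Ptgir and Ptgs2 lines share no order.

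Whether Ptgs2 and Ptgis reads fell in the same cells was read after each cell was thinned to 50000 counts. Ptgis was then present in 47 of the 63 smooth muscle-like cells with a Ptgs2 read (74.6%) and in 579 of the 799 without (72.5%). On KO plate 043 the shares were 80.0% and 80.4%, and on KO plate 471 they were 68.8% and 71.3%. The mean difference of these 2 plates was -1.47 percentage points on thinned counts and 0.44 points without thinning. WT plate 044 had 10 or more cells with Ptgs2 only without thinning, at 13 of 14 against 204 of 257 (13.5 points), and with it the mean was 4.79 points. It was 3.43 points where a cell needed 10 CPM. The mean within-plate rank correlation of the 2 genes was -0.0029 over the 4 plates with Ptgs2 reads (800 cells, range -0.092 to 0.11). Cells with and without Ptgs2 therefore held Ptgis at shares that differed by less than their counting intervals.

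Pla2g4a, the cytosolic phospholipase A2 upstream of both cyclooxygenases, differed more between these cells. It was singled out after its values were seen. A Pla2g4a read was present in 26 of the 63 thinned cells with Ptgs2 (41.3%, exact 95% interval 29.0 to 54.4%) and in 58 of the 799 without (7.26%, 5.56 to 9.28%). The shares were 10 of 20 against 18 of 148 cells on KO plate 043 and 15 of 32 against 14 of 195 on KO plate 471. On KO plate 467 they were 1 of 4 against 8 of 130, and on WT plate 044 they were 0 of 7 against 13 of 264. Without thinning they were 34.8% against 9.44% over all plates, 38.5% against 17.6% on KO plate 043 and 46.5% against 8.15% on KO plate 471. On WT plate 044 they were then 0 of 14 against 18 of 257. On thinned counts within cluster 3 they were 12 of 26 cells (46.2%) against 18 of 236 (7.63%). Within cluster 10 they were 14 of 23 (60.9%) against 24 of 50 (48.0%). The cluster 10 order rests on KO plate 471, with 12 of 16 against 6 of 16 cells, since it was the opposite on KO plate 043, with 1 of 5 against 9 of 20, and on KO plate 467, with 1 of 2 against 7 of 8. Cluster 10 was high in Pla2g4a as a whole, at 233 CPM. Fibroblast-like cells had a Pla2g4a read in 18 of 25 cells with Ptgs2 (72.0%) and in 66 of 145 without (45.5%), at 209 CPM overall. The intervals cover counting error alone, since reads of amplified libraries without molecular identifiers are not independent molecules.

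**Figure D4:**
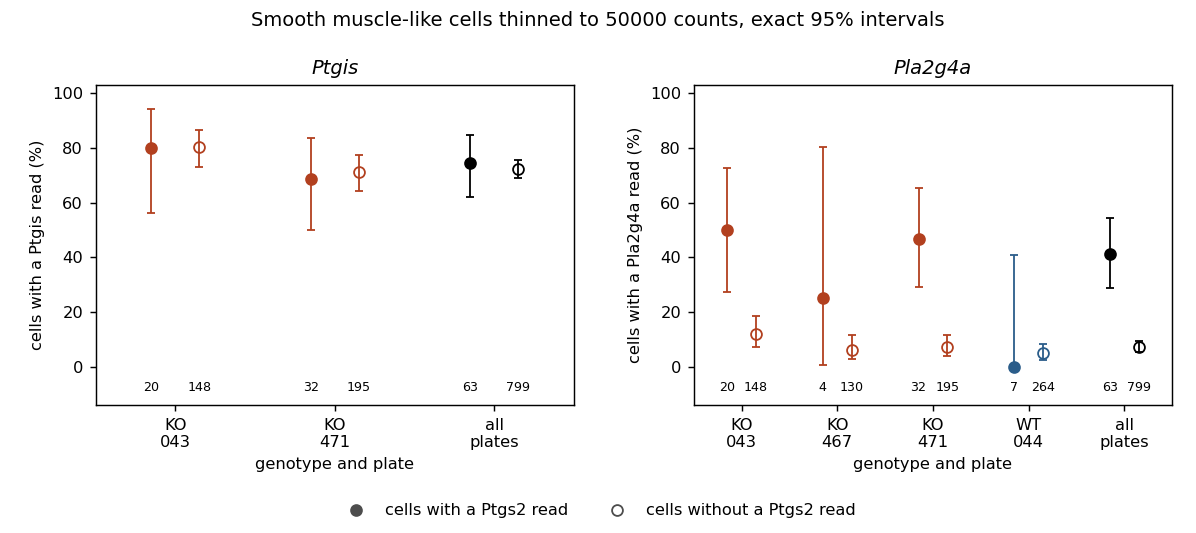
Percentage of smooth muscle-like cells, thinned to 50000 counts, with a Ptgis read (left) or a Pla2g4a read (right), for cells with a Ptgs2 read (filled) and without (open) by plate, with exact 95% intervals and cell numbers under the points. Over all plates the Ptgis shares lie together (74.6% and 72.5%) and the Pla2g4a shares lie apart (41.3% and 7.26%). The Pla2g4a contrast rests on KO plates 043 and 471, and WT plate 044 had 0 of 7 against 13 of 264 cells.

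Cells with and without a Ptgs2 read were also set side by side for the immediate early and the NF-kB and inflammatory lists in clusters 3 and 10, pooled over plates and without a test. Of the immediate early genes at 10 CPM or more in either set of cells, 13 of 20 were higher with Ptgs2 in cluster 3 (median log2 difference 0.19) and 19 of 19 in cluster 10 (1.03). Of the inflammatory genes, 10 of 12 were higher in cluster 3 (0.89) and 7 of 9 in cluster 10 (0.73). Over all such genes the median was -0.012 in cluster 3 and -0.041 in cluster 10. The genes named next were picked after their values were seen, and a difference between the clusters was not tested. In cluster 3, the 33 cells with a Ptgs2 read and the 229 without had 221 and 17.2 CPM of the cytokine gene Il6, 236 and 28.9 CPM of the chemokine gene Cxcl1, and 34.4 and 0.533 CPM of the adhesion gene Vcam1. Their Cnn1 was close, at 1017 and 950 CPM, as was that of Fos, at 3900 and 4404 CPM. In cluster 10, the 26 cells with a read and the 47 without had 543 and 119 CPM of Nr4a2, 633 and 191 CPM of Fosl2, and 2258 and 837 CPM of Nr4a1, which are transcription factors of the immediate early class. There Il6 stood at 25.1 and 0.0679 CPM and Cxcl1 at 15.8 and 33.3 CPM. Median counts per cell were 351884 with a Ptgs2 read and 298399 without in cluster 3, and 354362 and 310635 in cluster 10, and the part of depth in these values was not tested. Plates were unevenly mixed too. In cluster 10, KO plate 471 held 18 of the 26 cells with a read, and 0 of the 6 WT cells had one. In cluster 3, WT plate 044 had a read in 8 of its 103 cells and KO plate 043 in 13 of 62. The part of plate in these values was not tested either. Over all 862 smooth muscle-like cells, the 89 with a Ptgs2 read held 11.0 CPM of the macrophage/microglia marker list and the 773 without held 9.23 CPM. The genes most like Ptgs2 by within-plate rank correlation were Nov (0.23), Gadd45g (0.22), Wisp1 (0.22), S100a16 (0.21) and Id2 (0.21) over 4 plates, which is weak in sparse counts.

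Fibroblast-like cells fell into a pair of subclusters, at a finer resolution, with different synthases. The subcluster led by the transporter gene Slc6a13 (114 cells) had 2014 ± 668 CPM of Ptgds on 4 plates, namely 1580, 2985 and 1566 CPM for KO plates 043, 467 and 471, against 1923 CPM for WT plate 044. The subcluster led by the matrix gene Lum (56 cells, KO plates 043 and 471) had 119 ± 75.5 CPM of Ptgds. In the same order, Ptgis was at 169 ± 76.2 and 548 ± 77.1 CPM and Ptges at 176 ± 69.6 and 298 ± 4.53 CPM. Ptgs2 was at 54.0 ± 54.0 and 179 ± 108 CPM. For Ptgds, Ptgis and Ptges the plates of the subclusters did not overlap, but the Lum-led plates with 10 or more cells were from KO alone. The share of all genes without overlap between the subclusters was not taken. The genes most like Ptgds over 131 fibroblast-like cells of 3 plates included Slc6a13 (0.70) and Slc1a3 (0.67), and the rank correlation of Ptgds with Ptgis was -0.50. Macrophage/microglia-like cells also stood out in Hpgds, the blood-cell-type PGD2 synthase, at 553 CPM, and in Hpgd, which degrades prostaglandins, at 397 CPM. The prostaglandin exporter gene Abcc4 was at 292 CPM in endothelial-like cells.

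KO and WT plates were compared class by class on TMM-scaled CPM, and a log2 difference is that of KO minus WT means of log2(CPM + 1). A gene was measured where a genotype's mean reached 10 CPM and 10% of its cells had a read, and was called where it also differed 2-fold with no overlap of plates. In smooth muscle-like cells 4 of the 10 genes were measured and 0 were called, where 3.38% of 9616 genes were called (2.46% higher and 0.915% lower in KO) and 9.19% had no overlap of plates. Ptgs2 was at 248, 25.3 and 210 CPM on the KO plates, against 36.5, 0 and 0 CPM on the WT plates. KO plate 467 lay below WT plate 044, so the genotypes overlapped, and the log2 difference of 5.06 depends on the pseudocount because of the plates at 0. It was 2.73 between plates 043 and 044 and 6.27 on the other 4 plates. With clusters weighted equally it was 1.32, over clusters 3, 4 and 9 only. Clusters 5 and 10 had no WT plate with 10 cells, so cluster 10, the highest in Ptgs2, did not enter.

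The share of smooth muscle-like cells with a Ptgs2 read, on thinned counts, was 20 of 168 (11.9%, exact 95% interval 7.43 to 17.8%), 4 of 134 (2.99%, 0.819 to 7.47%) and 32 of 227 (14.1%, 9.85 to 19.3%) on KO plates 043, 467 and 471. It was 7 of 271 (2.58%, 1.04 to 5.25%), 0 of 20 and 0 of 42 on WT plates 044, 468 and 469, where the zeros allow up to 15.0% and 7.14%. The shares of KO plates 043 and 471 lay above each WT share. Their intervals lay above that of WT plate 044, but all these intervals cover counting error within a plate and say nothing of the genotypes. The exact intervals of WT plates 468 and 469 reach 16.8% and 8.41%, into those of KO plates, and those of KO plate 467 and WT plate 044 overlapped. The mean over plates was 9.66% in KO and 0.861% in WT, 8.80 percentage points apart. Without thinning the shares were 15.5%, 4.48% and 18.9% on the KO plates and 5.17%, 0 and 0% on the WT plates. Cluster 10 supplied 18 of the 43 unthinned Ptgs2 cells on KO plate 471 and 6 of the 26 on plate 043, and the part of the differing cluster mix in this value was not tested. Within cluster 3 the shares were 13 of 62, 1 of 23 and 11 of 53 cells on the KO plates, against 8 of 103, 0 of 10 and 0 of 11 on the WT plates.

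The other measured genes of smooth muscle-like cells were closer. Ptgis was at 642, 303 and 431 CPM on the KO plates, against 454, 353 and 320 CPM on the WT plates, a log2 difference of 0.24 with overlap. Within cluster 3 Ptgis had 947, 687 and 792 CPM of summed counts in KO, against 637, 584 and 522 CPM in WT, with no overlap, which was noted after the values were seen. The share of all genes without overlap within cluster 3 was not taken, and WT plates 468 and 469 held 10 and 11 cells of that cluster. Ptgir was at 51.5, 51.7 and 43.5 CPM in KO, against 33.6, 71.2 and 23.3 CPM in WT (0.34, overlapping). Ptger1 was at 14.5, 29.4 and 35.4 CPM in KO, against 16.0, 5.40 and 23.4 CPM in WT (0.90, overlapping, and -0.14 between plates 043 and 044). The Ptger1 level is uncertain, since overlapping transcripts cannot be told apart without strand. Of the 6 genes not measured, Ptgds (8.69 CPM in KO and 2.34 CPM in WT) and Ptges (1.28 CPM in KO and 0.0689 CPM in WT) had no overlap of plates. The 9.19% of genes without overlap was taken over measured genes, which leaves out both. The fibroblast marker list of smooth muscle-like cells, without overlap too, ranged over 314 to 370 CPM in KO, against 216 to 252 CPM in WT. On each plate only 1 of the 6 markers of this list reached 10 CPM. The part of the list in the Ptgds and Ptges values was not tested.

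In the Rgs5-high mural cells 4 genes were measured and 1 was called, where 5.17% of 9612 genes were called and 9.68% had no overlap. Ptgis was at 179, 126 and 132 CPM on the KO plates, against 122, 30.0 and 25.8 CPM on the WT plates, a log2 difference of 1.63. It was 0.56 between plates 043 and 044 and 2.16 on the other 4 plates, and WT plate 044 lay close below the KO plates. The summed smooth muscle marker list ranged over 11541 to 14100 CPM for KO plates, against 6721 to 13425 CPM for WT plates. The part of this list in the Ptgis value was not tested, nor was that of 1110018N20Rik reads. Neither Ptgir (42.0 CPM in KO and 38.1 in WT) nor Ptger1 (34.0 CPM in KO and 29.5 CPM in WT) nor Ptger4 (7.17 CPM in KO and 18.0 CPM in WT) was called. Ptgfr and Ptger3 fell short of 10% of cells, yet their plates did not overlap: Ptgfr was at 80.2, 17.5 and 27.6 CPM in KO, against 0.316, 0 and 0.836 CPM in WT, and Ptger3 at 74.1, 40.1 and 2.63 CPM in KO, against 0.0633, 0 and 0 CPM in WT. These reads lay in few cells, 13 for Ptgfr and 16 for Ptger3 at or above 100 CPM. The 9.68% of genes without overlap was taken over measured genes, which leaves out both. The endothelial marker list of the Rgs5-high cells ranged over 80.2 to 113 CPM in KO, against 185 to 505 CPM in WT, without overlap, and its part in the Ptgis, Ptgfr and Ptger3 values was not tested.

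In fibroblast-like cells 7 genes were measured and 1 was called, where 6.68% of 11194 genes were. Ptgfr was at 11.8, 19.3 and 2.23 CPM on the KO plates, against 33.2, 210 and 113 CPM on the WT plates, a log2 difference of -3.31. It was -1.45 between plates 043 and 044 and -4.25 on the other 4 plates. A Ptgfr read was present in 6.11% of KO and 23.1% of WT cells of this class. The order was the reverse in Rgs5-high mural cells (7.73% KO, 1.80% WT), where Ptgfr fell short of the rule for a measured gene. The fibroblast-like call rests on few cells. WT plate 044 gave 14 fibroblast-like cells, plate 468 gave 11 and plate 469 gave 14. With both genotypes pooled, 98.1% of the class's Ptgfr counts came from only 10 cells. The smooth muscle marker list of fibroblast-like cells ranged over 769 to 1411 CPM in KO, against 205 to 541 CPM in WT. Their choroid plexus list ranged over 344 to 379 CPM in KO, against 169 to 260 CPM in WT. The fibroblast list itself was lower in KO, at 7193 to 8033 CPM, against 8111 to 11086 CPM in WT. The part of these lists in the Ptgfr value was not tested. Ptgs2 was even in KO, at 88.7, 100 and 93.5 CPM, and uneven in WT, at 200, 0.336 and 8.60 CPM. Mean Ptgis was 313 CPM for KO, against 209 CPM for WT (0.52), Ptges 224 CPM for KO and 247 CPM for WT, and Ptgds 1496 CPM for KO and 1696 CPM for WT (-0.24), all overlapping.

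Endothelial-like cells had 10 or more KO cells on plates 043 and 471 only, with 11 and 17 cells. Here 8 genes were measured and 2 were called, where 12.4% of 10712 genes were. Ptger3 was at 14.1 and 13.3 CPM in KO, against 0, 0 and 0 CPM in WT, from 58 counts in 2 cells of plate 043 and 100 counts in 1 cell of plate 471, and was read in 0 of 158 WT cells, which allows a share of up to 1.90%. Its call was lost without the cells that held markers of another class and without KO plate 043. Ptger4 was at 15.5 and 23.3 CPM in KO, against 3.05, 5.19 and 10.1 CPM in WT (1.62), and the difference was -0.23 with classes drawn from the 7 markers alone. KO cells of this class came mainly from cluster 13 (29 KO and 16 WT cells) and WT cells from cluster 8 (7 KO and 142 WT cells). The pericyte marker list ranged over 3788 to 4400 CPM in KO, against 1524 to 2843 CPM in WT, and the endothelial list over 6806 to 9412 CPM in KO, against 9760 to 13356 CPM in WT, and their part in these values was not tested. Within cluster 13, Ptger3 was at 14.0 CPM on KO plate 471 and 0 CPM on WT plate 044, Ptger4 at 24.6 CPM on the KO plate and 3.37 CPM on the WT plate, and Ptgis at 238 CPM on the KO plate and 181 CPM on the WT plate. In ependymal-like cells Ptger1 alone was measured (17.2 CPM in KO and 14.7 CPM in WT), and 0 genes were called, where 6.84% of 11394 were.

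**Figure D5:**
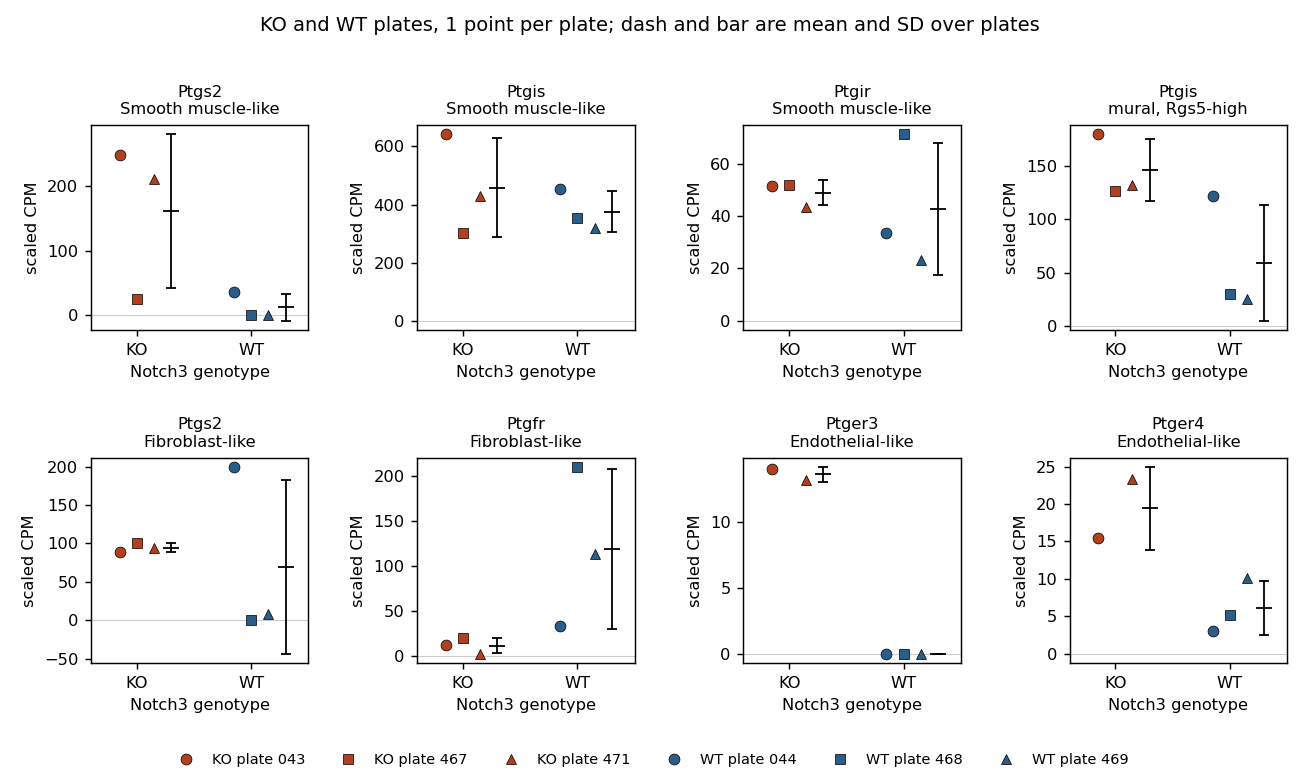
TMM-scaled CPM (y axis) on KO and WT plates (x axis) for 8 gene and class pairs, with 1 point per plate of at least 10 cells and the mean and SD over plates beside them. Ptgs2 in smooth muscle-like cells overlaps through KO plate 467 (25.3 CPM) and WT plate 044 (36.5 CPM), while Ptgis in Rgs5-high mural cells and Ptgfr in fibroblast-like cells do not overlap.

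Around these genes, no other gene of the pathway list was called in smooth muscle-like cells. Of a list of 30 further prostaglandin genes, 13 were measured, 8 above and 5 below no difference, and 0 were called, with a median log2 difference of 0.10, against 0.09 over all measured genes. The 4 measured members had a median of 0.62. The cochaperone-type PGE2 synthase Ptges3 was the highest of the list, at 311 CPM in KO and 305 CPM in WT, and the thromboxane receptor gene Tbxa2r was at 54.9 CPM in KO and 67.3 CPM in WT. Pla2g4a was at 50.9 CPM in KO and 32.3 CPM in WT. Of 19 genes of cyclic AMP signalling 18 were measured, 11 above and 7 below, and 1 was called, where 3.38% of all genes were. This was the adenylyl cyclase gene Adcy3, higher at 19.3, 10.9 and 15.2 CPM in KO, against 6.40, 0.491 and 0.120 CPM in WT.

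Of 22 immediate early genes 19 were measured in smooth muscle-like cells, 13 above and 6 below, and 0 were called, with a median of 0.07. Fos was at 3932 CPM in KO and 4165 CPM in WT. Of 16 genes of the NF-kB and inflammatory list 8 were measured, 6 above and 2 below, and 2 were called, beside the same 3.38% of all genes. The NF-kB inhibitor gene Tnfaip3 was called higher, at 27.6, 28.5 and 70.6 CPM in KO, against 8.54, 13.4 and 14.8 CPM in WT, as was Cxcl1. Of 5 genes of an arterial list, which was chosen on results of these same cells and is no independent evidence, 3 were measured. Of these Dmp1 was called lower, at 11.4, 26.1 and 15.8 CPM in KO, against 65.8, 48.8 and 62.1 CPM in WT, and Rarres1 higher. The endothelial marker list of smooth muscle-like cells ranged over 44.2 to 55.9 CPM for KO plates, against 6.00 to 30.4 CPM for WT plates. On each plate at most 1 of the 6 markers of this list reached 10 CPM. The part of the list in the values of the called genes was not tested.

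In the other classes, the calls of the pathway list are given beside the share of all genes called in that class. Rgs5-high mural cells had 12 of the 30 genes measured, 5 above and 7 below, and 0 called (all genes 5.17%). Fibroblast-like cells had 19 measured, 12 above and 7 below, and 2 called (all genes 6.68%). The prostaglandin transporter gene Slco2a1 was called higher there, at 77.5, 30.4 and 42.0 CPM in KO, against 17.3, 23.2 and 14.6 CPM in WT, as was the reductase gene Zadh2, at 58.1, 46.3 and 48.5 CPM in KO, against 24.0, 33.9 and 12.0 CPM in WT. Endothelial-like cells had 18 measured, 9 above and 9 below, and 2 called (all genes 12.4%), with Tbxa2r called higher, at 65.2 and 58.3 CPM in KO, against 24.2, 5.03 and 29.4 CPM in WT, and Ptgr1 also higher. Ependymal-like cells had 15 measured, 9 above and 6 below, and 1 called (all genes 6.84%). Ptgr1, which reduces and inactivates prostaglandins and leukotriene B4, was called higher there, at 135, 119 and 129 CPM in KO, against 56.5, 13.6 and 67.4 CPM in WT. In the same ependymal-like cells 17 immediate early genes were measured, 16 above and 1 below, of which 10 were called higher and Myc lower, with a median log2 difference of 2.63, against 0.18 over all measured genes.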

How the data were processed

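Brain cells were sequenced singly by Smart-seq2. Per the submitters' processing notes, the authors used TopHat2 2.1.1, SAMtools 0.1.18 and featureCounts of Subread 1.4.6-p5 on GRCm38/mm10, and they deposited raw counts per gene and cell. The annotation, strand setting and cell filter are not given in the sources used here.

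Cells with at least 50000 counts and 1000 genes were kept. The 2000 most variable genes, without Notch3, the 10 genes and the pathway list, gave 30 principal components (scikit-learn 1.9.0), a graph of 20 neighbours and 19 Leiden clusters at resolution 1 (leidenalg 0.10.2), with 0.5 and 2 as alternatives. A cluster was named from 14 marker lists where its best score reached 0.7, led the next by 0.15 and rested on at least 3 markers detected in 25% of its cells, which were thresholds set after the cluster tables were seen. No doublet caller was run; 128 cells above the 99th percentile of a second class's markers were left out in an alternative. Counts were summed per class and plate with at least 10 cells. Levels across classes use the library total; KO against WT uses TMM factors (edgeR 4.0.16) and a pseudocount of 1 CPM. With 1 sample per genotype no model was fitted and a size rule stood in for a test: 10 CPM, 10% of cells, 2-fold and no overlap of plates. Shares carry exact 95% binomial intervals and zeros a floor of 3 counts, both for counting error only. Gene symbols matched GENCODE M21 for 27956 of 30950 rows (90.3%) and for all 10 genes; promoters are from RefSeq, GRCm38.p6.

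The 10 genes and all lists were chosen with earlier results of these data known. Genes named beside them were the 5 most like Ptgs2 and Ptgis and the 3 most like other members read in at least 10% of smooth muscle-like cells, by mean within-plate rank correlation, and list members that met the size rule or had the highest level. Some items are not reported here.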

Additional observations from a re-analysis of the deposited data

How the results depend on the processing

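No paired analysis was possible because the KO and WT plates share no numbers in the labels and no test was run. In smooth muscle-like cells the count of the 10 genes called was 0 as reported, 1 with no filter on low values (Ptgds), 1 at Leiden resolution 0.5 (Ptger1), 1 on plates 043 and 044 alone (Ptgs2) and 2 on the other 4 plates alone (Ptgs2 and Ptger1); leaving out each plate in turn gave 0 to 1 (Ptger1 without KO plate 043, Ptgs2 without KO plate 467 or WT plate 044, and Ptgds without KO plate 471). A single plate against another cannot overlap, so counts on plates 043 and 044 are high by construction. In the other classes the count was 4 as reported, 12 on plates 043 and 044 and 8 on the other 4 plates, and 4 to 8 with each plate left out, the 8 coming without KO plate 471 and without WT plate 044. The KO minus WT share of cells with Ptgs2 stayed between 7.18 and 11.2 points under 5 other settings and between 6.58 and 12.1 with each plate left out. The Ptgis share difference between cells with and without Ptgs2, -1.47 points, was 4.79 without thinning, which also takes in WT plate 044 (13.5 points; 0.44 on the same 2 plates), and 3.43 at 10 CPM; with a plate left out it is the value of a single plate, -2.53 to -0.405, which shows no stability. The rise of Ptgis over Cnn1 tertiles was 499 to 559 CPM with each plate left out, an alternative added after the data were seen. The highest class was the same for 9 of 10 genes by the mean CPM of single cells. Of 311 alternative values of 24 log2 differences, 283 lay within the spread over plates, 27 beyond it and 1 called value changed sign: Ptger4 in endothelial-like cells at -0.23 with classes from the 7 markers alone. Counted over called and uncalled differences, 36 values had the opposite sign. The Ptgs2 difference in smooth muscle-like cells was 7.26 with a pseudocount of 0.1 and 3.50 with classes from those markers. The count of all genes called in smooth muscle-like cells, 325 as reported, was 844 without the filter on low values, 592 at 1.5-fold, 162 at 3-fold, 188 with Rgs5-high mural cells added, 535 on plates 043 and 044, 1241 on the other 4 plates, 555 without KO plate 043, 1177 without WT plate 044 and 519 without WT plate 469; fewer plates overlap less by construction, and the cause of the others was not tested. WT plates 468 and 469 held 20 and 42 smooth muscle-like cells, which limits every WT value to the precision of few cells.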
